A study of Homo sapiens with 12 samples.

Results

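The genes described here are 10 members of the transforming growth factor beta (TGF-beta) superfamily pathway, chosen by name as the rows of the raw count table whose Ensembl identifiers map to their symbols. They are the ligand genes TGFB1, TGFB2, INHBA and BMP4, the intracellular inhibitors SMAD6, SMAD7 and SKIL, and the target genes ID1, ID2 and ID3. All 10 were among the 61541 genes of the table, and 9 of them were among the 16768 genes that passed a filter on low counts and were tested. INHBA did not pass it. The libraries were labelled as A549, an established human lung adenocarcinoma cell line, and RNA was taken 14 days after transduction with Cas9 guides. The lone control cells carried a non-targeting guide, and the lone knockout cells carried guides against TYMS, which encodes thymidylate synthase, the enzyme that supplies thymidylate for DNA. Each kind of cell was also grown in co-culture, which gave 4 groups of 3 libraries, all listed as untreated. The series text names parental A549 as the partner of the knockout cells and says that their proliferation was restored. The sources used here do not give the partner of the control cells, nor whether partners were separated before RNA was taken, nor whether a group was a single clone or replicates were separate cultures, so p-values measure the spread between these libraries, which may be technical.

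Ligands of this family bind pairs of serine/threonine kinase receptors. TGF-beta and activin, a dimer of the INHBA product, lead to phosphorylation of SMAD2 and SMAD3, while bone morphogenetic proteins such as BMP4 lead to phosphorylation of SMAD1, SMAD5 and SMAD9, and both branches use SMAD4 to reach target genes. SMAD6, SMAD7 and SKIL are themselves targets of the pathway and restrain it. In lung epithelium and carcinoma, TGF-beta is known for growth arrest and for the shift of epithelial cells to a mesenchymal state.

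Totals ran from 14921371 to 35723762 counts per library, so that 1 CPM (the depth-scaled count, with library sizes adjusted by TMM) stood for 14.9 counts in the shallowest. TYMS itself averaged 95.4 ± 5.27 and 93.4 ± 2.67 CPM (SD, n = 3) in lone and co-cultured control libraries, against 20.9 ± 0.547 and 11.05 ± 0.360 CPM in lone and co-cultured knockout libraries. TYMS shares exon bases with ENOSF1 on the opposite strand. The identity of the libraries was checked against genes of the chromosome 9 locus that A549 is known to lack. MTAP, a methionine salvage enzyme of that locus, was at 59.5 ± 18.2 and 59.8 ± 5.74 CPM (SD, n = 3) in the lone and co-cultured libraries labelled control, and at 0.582 ± 0.0568 and 0.471 ± 0.163 CPM in those labelled knockout. The summed CPM of MTAP, CDKN2A and CDKN2B lay between 121.8 and 165.6 in the 6 libraries labelled control and between 0.302 and 0.745 in the 6 labelled knockout. Of 6 epithelial markers, EPCAM, an adhesion molecule (103.9 ± 13.6 CPM in the lone control against 0.620 ± 0.264 in the lone knockout; SD, n = 3), KRT19, CDH1 and KRT8 were lower in the lone knockout, KRT7 was higher (log2 fold change 1.64, edgeR adjusted p = 0.000335) and KRT18 did not pass. The libraries labelled control thus held transcripts of a locus that A549 lacks. In every comparison of knockout with control below, loss of TYMS and a difference in the origin of the cells cannot be told apart. Setting co-cultured against lone knockout uses libraries that share the labelled origin and the near absence of this locus.

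Markers of other cell types were low. The summed CPM of 4 leukocyte markers was 3.88 to 6.28 in the lone control, 1.84 to 4.12 in the co-cultured control, 1.69 to 1.86 in the lone knockout and 5.34 to 7.84 in the co-cultured knockout. CD3E had no count in any group, and the higher sum of the co-cultured knockout came from CD14 (3.25 ± 0.851 CPM, SD, n = 3, against 0.866 ± 0.0613 in the lone knockout) and CD68 (2.99 ± 0.526 against 0.893 ± 0.0398). Of 4 fibroblast markers, with sums of 12.1 to 24.5 CPM, 1 reached a mean of 1 CPM in any group, and 3 endothelial markers summed to at most 2.60 CPM. Their part in the results below was not tested. Because RNA was measured in bulk, fewer cells that express a gene and less RNA per cell cannot be told apart.

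Libraries also differed along the GC content of transcripts. The rank correlation between GC and a library's deviation from its group mean, taken over 16505 genes that are not independent of each other, was lowest for co-cultured knockout replicate 3 (-0.757) and highest for co-cultured knockout replicate 2 (0.736). The members span this range: 63.5% of the longest TGFB1 transcript is G or C (percentile 93.2 of the tested genes), against 38.9% for TGFB2 (percentile 9.7) and 33.4% for SKIL (percentile 0.3). Differences between groups followed GC as well. Measured by the same kind of rank correlation, their trend ran from -0.386 in knockout against control alone to 0.533 in the interaction described below. Values with an offset for GC are given beside several of the results below. This offset moved differences between groups too, so it is not a correction of spread within groups only. Whether it also removed true differences between groups that follow GC was not tested.

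Sequence is shown for the starts of ID1 and TGFB2, the members with the highest level per kilobase in control libraries and the largest rise in knockout libraries, whose RefSeq windows lie outside annotated transcripts apart from the last bases of the ID1 window. Each line gives the 250 bases before the RefSeq start on GRCh38.p14, 5′ to 3′ on the plus strand, with capitals on the SMAD box CAGAC (or GTCTG) and the TATA motif TATAAA (or TTTATA), searched on both strands together with the GC-rich BMP element GGCGCC.
ID1, chr20:31605039-31605288: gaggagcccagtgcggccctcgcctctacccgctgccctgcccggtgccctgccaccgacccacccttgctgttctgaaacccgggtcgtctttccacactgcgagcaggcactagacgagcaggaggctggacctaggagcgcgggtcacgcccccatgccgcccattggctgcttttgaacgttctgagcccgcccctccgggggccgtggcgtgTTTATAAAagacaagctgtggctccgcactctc
TGFB2, chr1:218345086-218345335: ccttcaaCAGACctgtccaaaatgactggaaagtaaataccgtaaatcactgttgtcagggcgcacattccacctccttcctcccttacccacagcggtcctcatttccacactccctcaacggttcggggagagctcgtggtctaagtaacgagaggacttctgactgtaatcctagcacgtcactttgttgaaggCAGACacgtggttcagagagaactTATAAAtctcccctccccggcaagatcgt
The ID1 window held TATAAA at position -31 overlapping TTTATA at -33, and neither CAGAC nor GGCGCC. The TGFB2 window held CAGAC at positions -243 and -53 and TATAAA at -29, where -1 is the base before the start and a position is the first base of the match. Among 35116 RefSeq windows of the same length, 38.0% held CAGAC, 10.7% held TATAAA and 16.4% held GGCGCC. These matches describe the letters of the window and were not tied to binding.

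The first question was how these genes differed between knockout and control cells grown alone. TGFB2, SMAD6, SMAD7, SKIL and ID2 were higher in the knockout, and TGFB1, BMP4, ID1 and ID3 were lower. By edgeR's quasi-likelihood test with Benjamini-Hochberg adjustment over all genes, 9 of 9 tested members passed an adjusted p of 0.05, 5 of them higher and 4 lower, where 56.6% of all tested genes passed (28.0% higher and 28.6% lower). The 3 knockout libraries did not overlap the 3 control libraries for any of the 9, as for 65.2% of all tested genes. Each of the 9 had at least 37 counts in every library. The median size of the log2 fold change was 1.72 over the 9 members and 0.792 over all genes. The members were chosen with earlier results of these data known, so such contrasts with all genes are not independent of that choice.

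**Figure D1:**
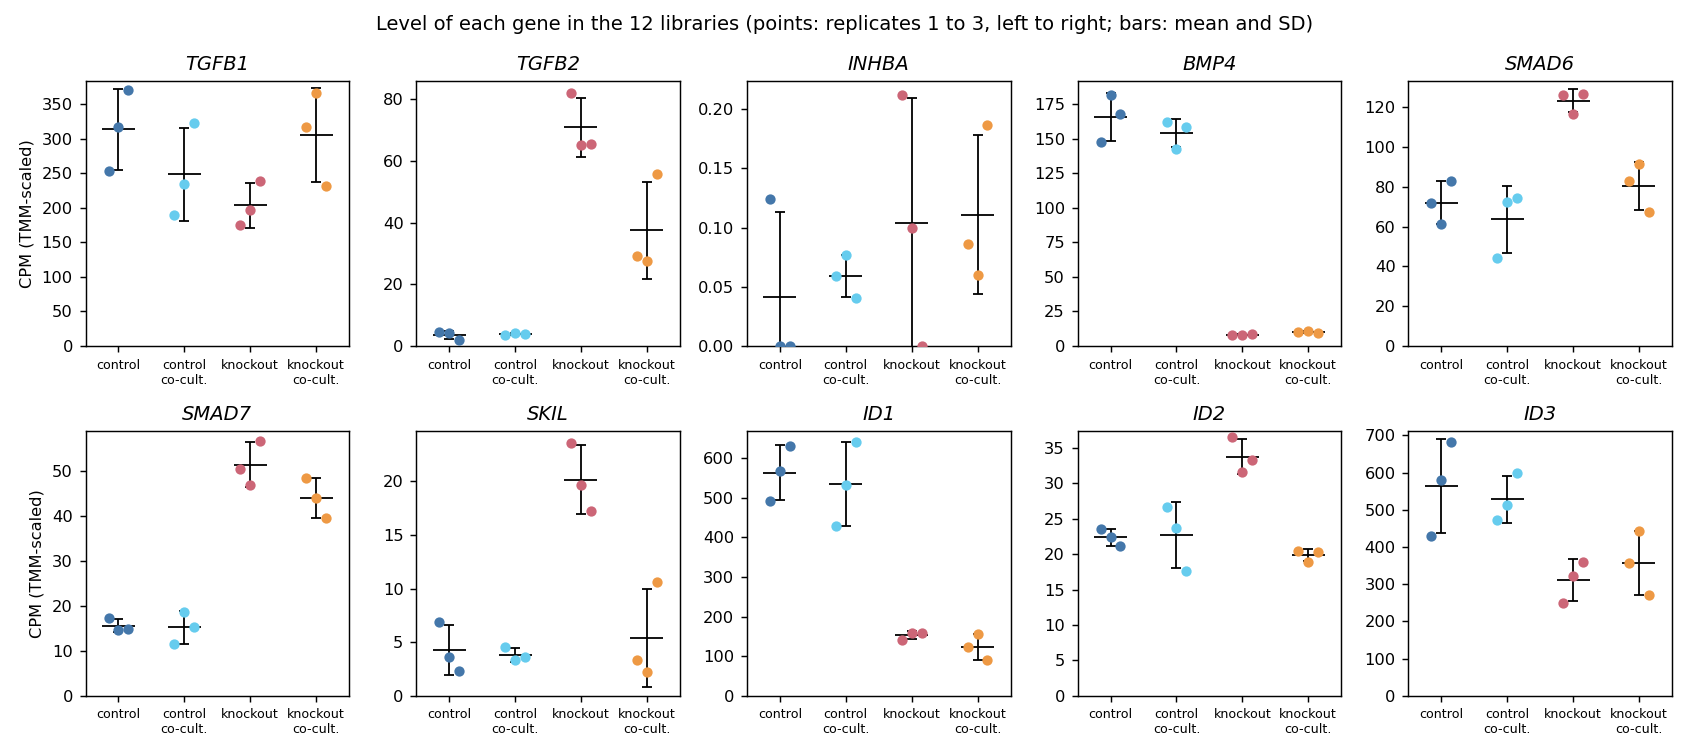
Level of each of the 10 genes in the 12 libraries. Each panel plots CPM (TMM-scaled, linear axis from 0) for control alone, control co-cultured, knockout alone and knockout co-cultured; points are replicates 1 to 3 and bars the mean and SD. TGFB2 sits at 2.02 to 4.59 CPM in the 6 control libraries and at 27.6 to 82.0 in the 6 knockout libraries, and BMP4 at 142 to 182 against 8.07 to 10.8.

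Among the ligands, TGFB2 (ENSG00000092969; GRCh38 chromosome 1, 218346235 to 218444619, plus strand), which encodes a TGF-beta isoform that needs the co-receptor betaglycan for strong binding, was at 4.59, 4.25 and 2.02 CPM in replicates 1 to 3 of the lone control. It was at 82.0, 65.3 and 65.7 CPM in the lone knockout. All knockout libraries lay far above all control libraries, and the log2 fold change was 4.30 (SE of 0.34, adjusted p by edgeR = 3.77e-07), a rise of 19.7-fold. BMP4 (ENSG00000125378; chromosome 14, 53949736 to 53958761, minus strand), a BMP ligand with roles in lung branching, went the other way. Its levels were 148, 182 and 168 CPM in the lone control and 8.17, 8.07 and 8.64 CPM in the lone knockout. The libraries of each group lay close together, and BMP4 was 19.99-fold lower in the knockout (log2 fold change -4.32, SE of 0.14, adjusted p by edgeR = 2.85e-10). Per kilobase of exon, the ratio of BMP4 to TGFB2 was 53.8 to 139 in the 3 lone control libraries and 0.167 to 0.220 in the 3 lone knockout libraries, so the order of the 2 ligands was opposite in the 2 groups. TGFB2 shares 1371 exon bases (26.6% of its exon length) with TGFB2-OT1 on the same strand, which held 0 counts. How reads in those bases were counted is not given in the sources used here, so the size of these ratios is uncertain.

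TGFB1 (ENSG00000105329; chromosome 19, 41301587 to 41353911, minus strand), the most widely expressed TGF-beta isoform, stood at 253, 317 and 371 CPM in the lone control and at 175, 197 and 239 CPM in the lone knockout. The highest knockout library lay just under the lowest control library, and the log2 fold change was -0.62 (SE of 0.23, adjusted p by edgeR = 0.0325). This call was lost without replicate 2 (0.0725) or 3 (0.104) of the lone control or replicate 1 (0.114) or 2 (0.0856) of the lone knockout, and with an offset for GC the value turned to 0.14 (adjusted p = 0.132). TGFB1 shares 215 exon bases with HNRNPUL1 on the opposite strand, and the strand setting of the counting is not given in the sources used here.

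INHBA (ENSG00000122641; chromosome 7, 41667168 to 41705834, minus strand), the subunit gene of activin A, was close to absent, with 22 counts over the 12 libraries. Replicates 1 to 3 held 2, 0 and 0 counts in the lone control, 1, 2 and 1 in the co-cultured control, 5, 2 and 0 when knockout cells grew alone and 2, 2 and 5 when they were co-cultured. A library without a count allows up to 3 counts, which in those 3 libraries is 0.164 to 0.185 CPM. No difference between groups was detectable at this depth, and INHBA, below the filter, was tested only in the alternative fit without one, where its adjusted p ran from 0.564 to 1 over the 5 comparisons.

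The 3 inhibitors were all higher in the lone knockout. SMAD7 (ENSG00000101665; chromosome 18, 48919853 to 48952052, minus strand), which blocks TGF-beta and BMP receptors and recruits ubiquitin ligases to them, was at 17.2, 14.7 and 14.9 CPM in the lone control and at 50.5, 46.8 and 56.6 CPM in the lone knockout. Its 3.29-fold rise (log2 fold change 1.72, SE of 0.18, adjusted p by edgeR = 4.65e-06) was much wider than the spread within either group. SMAD6 (ENSG00000137834; chromosome 15, 66702228 to 66782848, plus strand), which acts mainly on the BMP branch, stood at 72.0, 61.4 and 82.7 CPM against 126, 117 and 127. This rise of 1.71-fold was smaller (log2 fold change 0.77, SE of 0.20, adjusted p by edgeR = 0.00455) and was 1.29 with the offset for GC. The per-kilobase ratio of SMAD7 to SMAD6 lay between 0.307 and 0.407 in the lone control and between 0.681 and 0.760 in the lone knockout.

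SKIL (ENSG00000136603; chromosome 3, 170357678 to 170396835, plus strand) encodes SnoN, a co-repressor that holds SMAD complexes in check. Its levels in the lone control were 6.88, 3.57 and 2.35 CPM, and in the lone knockout 23.6, 19.7 and 17.2 CPM. The groups did not overlap, although the control libraries themselves were widely spread, and the log2 fold change was 2.24 (SE of 0.52, adjusted p by edgeR = 0.00252).

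The ID genes encode inhibitors of basic helix-loop-helix transcription factors and did not move as one. ID1 (ENSG00000125968; chromosome 20, 31605283 to 31606515, plus strand), a direct BMP target, was at 492, 567 and 631 CPM in the lone control and at 141, 159 and 159 CPM in the lone knockout. It fell 3.67-fold (log2 fold change -1.88, SE of 0.21, adjusted p by edgeR = 8.00e-06), and no library of either group came near the other. ID3 (ENSG00000117318; chromosome 1, 23557918 to 23559794, minus strand), another BMP target, was at 430, 580 and 682 CPM against 250, 323 and 360. Its groups were closer to each other (log2 fold change -0.86, SE of 0.22, adjusted p by edgeR = 0.00457), and the value was -0.46 with the offset for GC, still past the threshold. ID2 (ENSG00000115738; chromosome 2, 8678845 to 8684453, plus strand), which is also known to bind the retinoblastoma protein, was higher instead, at 23.5, 22.5 and 21.2 CPM in the lone control against 36.5, 31.6 and 33.3 CPM in the lone knockout. The log2 fold change of ID2 was 0.59 (SE of 0.16, adjusted p by edgeR = 0.00663); ID2 shares 38 exon bases with its antisense gene ID2-AS1. Per kilobase, ID1 exceeded ID3 by a ratio of 1.35 to 1.67 in the lone control and was below it, at 0.646 to 0.823, in the lone knockout.

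The calls of TGFB2, BMP4, SMAD6, SMAD7, SKIL, ID1, ID2 and ID3 in this comparison held in all 21 alternative fits. Their size depended on the fit: log2 fold changes ran from 1.71 to 2.76 for SKIL, 3.76 to 4.5 for TGFB2 and -1.97 to -1.38 for ID1.

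**Figure D2:**
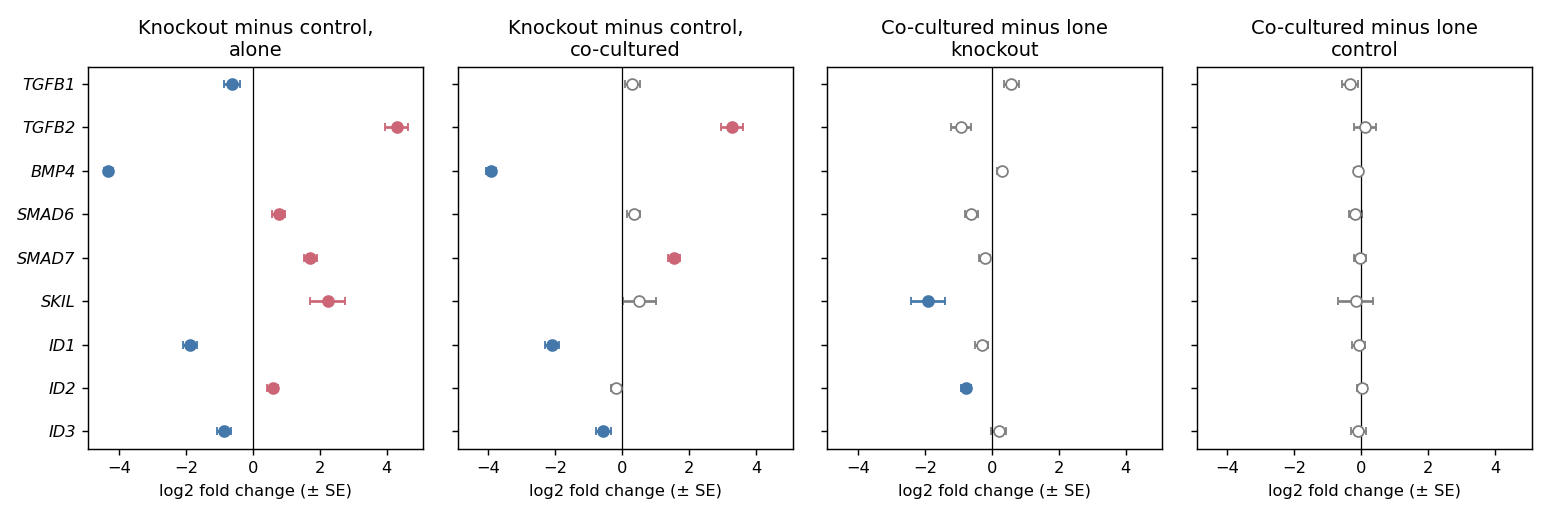
Log2 fold change with its SE of the 9 tested genes, 1 panel per comparison. Filled points passed an edgeR adjusted p of 0.05 (red higher, blue lower) and open points did not. In knockout against control alone the points run from -4.32 for BMP4 to 4.30 for TGFB2, and in co-cultured against lone control all lie between -0.34 and 0.10.

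The rest of the pathway was read from 8 gene lists. Like the members, the lists were chosen with earlier results of these data known. Contrasts of a list with all genes are therefore not independent of that choice. Of 15 targets of the TGF-beta branch, 11 rose and 1, JUNB, fell in the lone knockout, the latter not with DESeq2 size factors or the offset for GC. The list's median log2 fold change was 2.15, where that of all genes was 0.087. Of all tested genes, 28.0% rose and 28.6% fell. TAGLN, an actin-binding protein, went from 9.94 ± 1.87 to 279 ± 61.6 CPM (SD, n = 3; log2 fold change 4.81, SE of 0.25, adjusted p by edgeR = 8.94e-09). FN1 (fibronectin) went from 123 ± 27.3 to 1333 ± 171 CPM and CCN2, a matricellular growth factor, from 11.2 ± 0.540 to 120 ± 5.96 CPM. Of 12 targets of the BMP branch, 10 were tested, 5 fell (MSX1, GATA2, MSX2, ID4 and SMAD9) and 1, RUNX2, rose, with a median log2 fold change of -1.02. ID4 and SMAD9 stayed below a mean of 5 CPM in every group. MSX1, a homeobox transcription factor, went from 233 ± 36.3 to 14.4 ± 2.75 CPM (difference on the log2 scale -4.02, SE of 0.24, adjusted p by edgeR = 3.62e-08), and MSX2 from 30.8 ± 3.85 to 8.61 ± 1.25 CPM. These lists share PMEPA1, LTBP2, SMAD9 and BAMBI with other lists of the pathway.

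Over the 8 lists together, 52 of 79 tested genes passed in this comparison (65.8%), 32 higher and 20 lower, beside the 56.6% of all tested genes given above (28.0% higher and 28.6% lower). Among 24 other ligand genes, 13 were tested, of which 4 rose and 5 fell, shares near those of all genes. BMP7 fell from 14.9 ± 3.59 to 1.09 ± 0.262 CPM (difference on the log2 scale -3.76, SE of 0.26, adjusted p by edgeR = 1.11e-07), and BMP8A, BMP6 and BMP8B fell by 2.24, 1.42 and 0.89 on the log2 scale. With the offset for GC, BMP8A was at -1.26 and BMP8B at -0.56, both still past the threshold. Of 13 receptors tested among 14, 5 rose and 2 fell, again a share near that of all genes. Among those with a mean of at least 5 CPM in a group, BMPR2 (log2 fold change 2.08, or 1.49 with the offset for GC), TGFBR1 (1.85), TGFBR2 (1.46) and ACVR1 (1.28) differed most. Below that level, ACVRL1 fell (1.99 ± 0.504 to 0.173 ± 0.204 CPM; SD, n = 3; log2 fold change -3.52) and AMHR2 rose (0.228 ± 0.191 to 1.08 ± 0.448 CPM; 2.17). Among the 6 signal-carrying SMADs, SMAD3 rose from 113 ± 8.05 to 489 ± 15.6 CPM (difference on the log2 scale 2.11, SE of 0.13, adjusted p by edgeR = 3.50e-08). SMAD9, below a mean of 5 CPM in every group, fell, and SMAD1, SMAD2, SMAD4 and SMAD5 did not pass the test.

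Antagonists and negative regulators, 16 tested of 19, held 8 that rose and 4 that fell, where 28.0% of all tested genes rose and 28.6% fell. CHRD, chordin, a secreted BMP antagonist, was at 10.2 ± 1.27 CPM in the lone control and at 0.195 ± 0.159 CPM in the lone knockout, the latter from 11 counts in 3 libraries (log2 fold change -5.73, and -4.92 with the offset for GC). BMPER, a BMP-binding secreted protein, went from 0.741 ± 0.215 to 10.8 ± 1.56 CPM, and PMEPA1, a membrane protein that sequesters SMAD2 and SMAD3, from 254 ± 13.8 to 672 ± 40.5 CPM. Of 7 tested genes for latency and activation of TGF-beta, 3 rose (THBS1, LTBP2 and LTBP1) and 2 fell. Among the E proteins that ID proteins bind, TCF3 fell from 285 ± 30.8 to 112 ± 12.3 CPM (difference on the log2 scale -1.35, SE of 0.16, adjusted p by edgeR = 1.85e-05), and was at -0.71 with the offset for GC, still past the threshold. TCF12 rose by 1.17 (edgeR adjusted p = 0.0413), or 0.68 with the offset, and scaling by library size alone (0.0668) or leaving out any of 6 libraries (0.0528 to 0.160) ended that call.

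**Figure D3:**
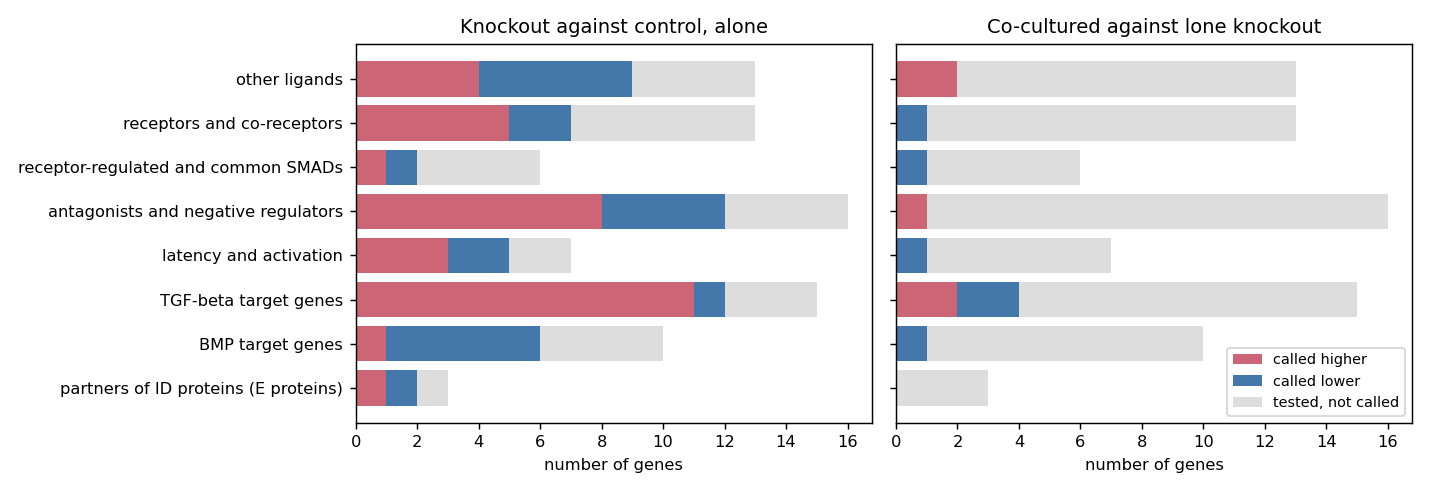
Number of genes in each of the 8 pathway lists that were called higher, called lower or tested and not called, in knockout against control alone and in co-cultured against lone knockout. Among TGF-beta targets 11 of 15 were called higher in the first comparison, and among BMP targets 5 of 10 were called lower. The lists were chosen with earlier results of these data known.

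The next question was whether co-culture changed these genes in knockout cells. SKIL and ID2 fell in co-culture, 2 of 9 tested members, where 11.4% of all tested genes passed the same test (5.97% higher and 5.40% lower). For TGFB2, BMP4, SMAD6, SKIL and ID2 the 3 co-cultured libraries did not overlap the 3 lone ones, 5 of 9 members, where 31.5% of all genes did not. The median log2 fold change of the 9 members was -0.31 and that of all genes 0.012.

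ID2 was at 36.5, 31.6 and 33.3 CPM in the lone knockout and at 20.4, 18.9 and 20.3 CPM in the co-cultured knockout. The 3 co-cultured libraries lay within a narrow band below all lone ones, also below the mean of the lone control (22.4 ± 1.17 CPM, SD, n = 3). The log2 fold change was -0.77 (SE of 0.16, adjusted p by edgeR = 0.0106), and leaving out replicate 1 of either knockout group ended the call (0.0545 for the lone and 0.0506 for the co-cultured one).

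SKIL was at 23.6, 19.7 and 17.2 CPM in the lone knockout and at 3.32, 2.21 and 10.6 CPM in the co-cultured knockout. Replicates 1 and 2 of the co-culture stood within or just under the range of the lone control, and replicate 3, the library with the strongest negative trend with GC, stood between them and the lone knockout. The log2 fold change was -1.91 (SE of 0.50, adjusted p by edgeR = 0.0314), and -2.88 without that replicate. Scaling by library size alone (0.0754), a fit of the compared groups only (0.105) and leaving out any other library of either knockout group (0.0574 to 0.146) each ended the call.

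TGFB2 was at 82.0, 65.3 and 65.7 CPM in the lone knockout and at 29.1, 27.6 and 55.7 CPM in the co-cultured knockout. As for SKIL, replicate 3 of the co-culture stood nearest to the lone libraries. The log2 fold change was -0.92 (SE of 0.29, adjusted p by edgeR = 0.0556), short of the threshold, and without replicate 3, in a fit that called 33.4% of all genes, it was -1.32 (adjusted p = 0.000912). SMAD6 was at 126, 117 and 127 CPM against 83.0, 91.3 and 67.5 (log2 fold change -0.61, SE of 0.19, adjusted p by edgeR = 0.0593), with no overlap of the groups. BMP4 was at 8.17, 8.07 and 8.64 CPM against 10.4, 10.8 and 9.22, a difference of 0.29 on the log2 scale that did not pass (adjusted p = 0.154).

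TGFB1 was at 175, 197 and 239 CPM in the lone knockout and at 317, 366 and 231 CPM in the co-cultured knockout, so that the groups overlapped through replicate 3. Its log2 fold change was 0.58 (SE of 0.23, adjusted p by edgeR = 0.109), and 0.75 without that replicate (adjusted p = 0.0171). For SMAD7, at 48.3, 44.0 and 39.4 CPM in co-culture, ID1, at 123, 157 and 90.8, and ID3, at 357, 442 and 271, the co-cultured libraries overlapped the lone ones, and the log2 fold changes were -0.22, -0.31 and 0.20 (adjusted p from 0.320 to 0.561). The per-kilobase ratio of ID1 to ID3, which does not depend on scaling between libraries, was 0.489 to 0.518 in the co-cultured knockout, below its range of 0.646 to 0.823 in the lone knockout.

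The log2 fold changes of all genes in this comparison had a rank correlation of 0.435 with GC. With an offset for GC, 7 of 9 members passed, in a fit that called 28.2% of all genes: TGFB1 was higher (0.27, adjusted p = 0.0203), and TGFB2 (-0.48, 0.0294), SMAD6 (-0.94, 0.000699), SMAD7 (-0.53, 0.0461), SKIL (-1.55, 0.000592), ID1 (-0.66, 0.000130) and ID2 (adjusted p = 0.00116) were lower. The same offset raised the number of all genes called from 1907 to 4733. It moved their split from 1001 higher and 906 lower to 1810 higher and 2923 lower, and scaling by library size alone gave 989 higher and 431 lower.

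**Figure D4:**
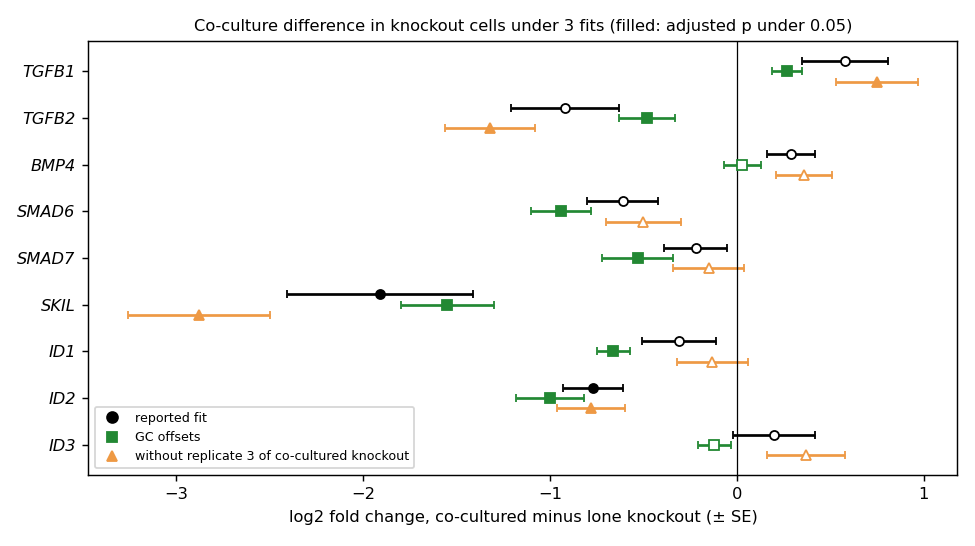
Log2 fold change with its SE of the 9 tested genes in co-cultured against lone knockout under 3 treatments of the data: as tested, with an offset for GC, and without replicate 3 of the co-cultured knockout. Filled points passed an adjusted p of 0.05. SKIL and ID2 lie below 0 and are filled in all 3, and ID3 changes side from 0.20 to -0.12 with the offset.

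In the pathway lists, 11 of 79 tested genes passed with co-culture of the knockout (13.9%), 5 higher and 6 lower, near the 11.4% of all genes. Among TGF-beta targets 2 rose (CDKN1A and IL11) and 2 fell (CCN2 and COL1A1). The call of CCN2 (log2 fold change -0.55, edgeR adjusted p = 0.0212) was lost with no filter on low counts (0.184) and without replicate 1 or 2 of either knockout group (0.0689 to 0.111). GDF15, a stress-induced ligand of the family, rose from 102 ± 17.5 to 512 ± 135 CPM (difference on the log2 scale 2.32, SE of 0.24, adjusted p by edgeR = 0.000120), and BMP2 from 1.68 ± 0.120 to 4.47 ± 0.630 CPM. THBS1, thrombospondin, an activator of latent TGF-beta, fell from 121 ± 13.2 to 54.0 ± 15.6 CPM (difference on the log2 scale -1.17, SE of 0.21, adjusted p by edgeR = 0.00410). BMPR2 was the single receptor called (log2 fold change -1.30, SE of 0.34, adjusted p by edgeR = 0.0290; -0.86 with the offset for GC), and library size alone (0.0764), the compared groups only (0.106), the replicate block (0.0581) and leaving out replicate 1 or 2 of either knockout group (0.0720 to 0.136) each ended that call. Without replicate 3 of the co-cultured knockout, 1 of 13 receptors was called higher and 9 lower, in a fit that called 33.4% of all genes, 2077 higher and 3603 lower.

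When knockout and control cells were both co-cultured, 5 of 9 tested members differed, 2 higher and 3 lower, where 49.4% of all tested genes did (24.1% higher and 25.3% lower). TGFB2 was at 3.503, 4.32 and 3.75 CPM in the co-cultured control and 9.67-fold higher in the co-cultured knockout (difference on the log2 scale 3.27, SE of 0.32, adjusted p by edgeR = 3.13e-06). BMP4, at 162, 142 and 158 CPM in the co-cultured control, was 15.2-fold lower (log2 fold change -3.92, SE of 0.14, adjusted p by edgeR = 5.73e-10). These are the members with the widest gap in both pairs of groups. The pairs share no library, but they set the same kinds of cell against each other in the same fit. Their likeness is therefore not independent support.

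SMAD7, at 11.5, 18.7 and 15.3 CPM in the co-cultured control, was higher in the co-cultured knockout (difference on the log2 scale 1.53, SE of 0.18, adjusted p by edgeR = 1.32e-05). ID1, at 429, 532 and 642 CPM, was lower (log2 fold change -2.11, SE of 0.21, adjusted p by edgeR = 3.42e-06). ID3, at 473, 514 and 598 CPM, was lower by less (log2 fold change -0.57, SE of 0.22, adjusted p by edgeR = 0.0438), a call that held in 10 of 21 alternative fits. The 3 co-cultured knockout libraries did not overlap the co-cultured controls for these 5 members, as for 55.4% of all genes.

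The remaining 4 members overlapped between the co-cultured groups. TGFB1 was at 189, 234 and 322 CPM in the co-cultured control (log2 fold change 0.30, edgeR adjusted p = 0.3002), and SMAD6 at 44.1, 72.5 and 74.4 CPM (0.34, adjusted p = 0.165). SKIL was at 4.51, 3.29 and 3.59 CPM and ID2 at 26.7, 23.8 and 17.6 CPM, with log2 fold changes of 0.51 and -0.19 that did not pass. With the offset for GC, TGFB1 (0.53, adjusted p = 3.45e-05) and SMAD6 (0.43, adjusted p = 0.0257) passed as higher, and without replicate 3 of the co-cultured knockout SKIL turned to -0.46 (adjusted p = 0.304). In the pathway lists, 12 of 15 TGF-beta targets were higher and 0 lower, and of 10 tested BMP targets 1 was higher and 5 were lower. Among all tested genes, 24.1% were higher and 25.3% lower in this comparison.

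Between co-cultured and lone control cells, 0 of the 9 members passed by edgeR, and 0 of 16768 genes passed (0%). An unadjusted p under 0.05 was reached by 540 genes, of which 0 were members. The SE of the log2 fold change was 0.52 for SKIL and 0.33 for TGFB2, so differences of that size are not excluded. DESeq2 and limma voom also called 0 genes. The log2 fold changes of the members lay between -0.34 for TGFB1 and 0.10 for TGFB2, each with an adjusted p of 1, and the libraries of the groups overlapped for all 9, where 7.39% of all genes did not overlap.

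The difference between the co-culture responses of knockout and control cells was tested as an interaction. By edgeR 0 of 9 members passed, where 1.80% of all tested genes did (1.51% higher and 0.286% lower). Of the members, 5 had an unadjusted p under 0.05, as had 3135 of all 16768 tested genes. The nearest to the threshold was ID2 (-0.78, SE 0.23, adjusted p = 0.108). SKIL was at -1.74 (SE 0.71, adjusted p = 0.228), TGFB2 at -1.03 (SE 0.43, adjusted p = 0.238) and TGFB1 at 0.92 (SE 0.32, adjusted p = 0.175), so a response particular to the knockout was not shown for these genes by the test as specified. DESeq2 called 1 member and limma voom 0. Without replicate 3 of the co-cultured knockout 4 passed, namely TGFB2 (-1.43, 0.0106), TGFB1 (1.09, 0.0198), ID2 (-0.79, 0.0323) and SKIL (-2.70, 0.00369), and with the offset for GC 5 passed (ID1, ID2, SKIL and SMAD6 lower and TGFB1 higher). Those fits called 21.3% and 7.68% of all genes in the interaction. Of the pathway lists, GDF15 (2.61, adjusted p = 0.00182) and CDKN1A (1.26, adjusted p = 0.0402) passed, the latter not with DESeq2 size factors (0.0559), the replicate block (0.0735) or any of 9 libraries left out (0.0600 to 0.130).

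Levels compared between genes per kilobase of exon put ID1 first in lone control cells (457 ± 56.5 CPM per kilobase, SD, n = 3), followed by ID3 (314 ± 70.5), TGFB1 (96.8 ± 18.1) and BMP4 (53.8 ± 5.60). ID2 (10.1 ± 0.532) and SMAD6 (8.41 ± 1.24) followed, then SMAD7 (3.10 ± 0.281). TGFB2 (0.703 ± 0.271) and SKIL (0.548 ± 0.301) did not differ beyond their spread, and INHBA was last. In the lone knockout ID3 (173 ± 31.0) and ID1 (124 ± 8.43) exchanged places, ID2 (15.3 ± 1.13), SMAD6 (14.4 ± 0.670) and TGFB2 (13.8 ± 1.85) lay within their spread of each other, and BMP4 (2.69 ± 0.0993) fell to the level of SKIL (2.59 ± 0.412). In the co-cultured knockout ID1 (100 ± 26.9) and TGFB1 (94.1 ± 21.1) did not differ beyond their spread. The place of TGFB2 among SMAD6, ID2 and SKIL is less certain, because part of its exon length is shared with TGFB2-OT1.

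The genes whose pattern over the 12 libraries was nearest to that of ID1, by root-mean-square distance of centred log2 CPM, were SNAI1 (0.126), a transcription factor of mesenchymal transition, PKP3 (0.130), a desmosomal protein, and DDR1 (0.144), a collagen receptor kinase. ID3, the nearest member, was at 0.676. SNAI1 averaged 12.2 ± 2.73 and 10.6 ± 2.12 CPM (SD, n = 3) in lone and co-cultured control libraries, against 2.89 ± 0.413 and 2.12 ± 0.558 CPM in the knockout ones. The list of TGF-beta targets described above held SNAI2 but not SNAI1, so the lower level of SNAI1 is not among its counts. The 12 libraries fall into control and knockout libraries, so this likeness rests on few independent points, and no such measure was made for INHBA, which was below the filter.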

How the data were processed

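Total RNA of 12 libraries was sequenced in 4 groups of 3, assigned from each sample's own title. Per the labels' protocols, the NEBNext Ultra RNA kit was used. The authors deposited raw read counts per Ensembl gene for 61541 genes. The submitters' processing notes name FastQC, STAR 2.7.9a, featureCounts, R 4.2.1, DESeq2 1.36.0 and GRCh38. The strand setting is not given in the sources used here.

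Symbols were matched to 42045 identifiers, and positions, exon lengths and GC content came from GENCODE 29 (58366 identifiers). Counts were tested in R 4.3.3 with edgeR 4.0.16 (filterByExpr, TMM, 4 group means over all 12 libraries, robust quasi-likelihood F-test). P-values were adjusted by Benjamini-Hochberg over 16768 genes in each of 5 comparisons, and a gene was called under 0.05. The biological coefficient of variation was 22.1%. Floors of 3 counts cover counting error only. Replicates differed by more than counting noise (chi-square 8.77 to 130 per gene). The fit was tested on simulated data with 200 changed genes, drawn with the same spread for every gene and no trend with GC. That setting differs from these libraries, so it does not bear on the effect of GC.

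The alternatives were DESeq2 size factors, library size alone, no filter, DESeq2 1.42.0, limma voom (limma 3.58.1), the compared groups only, a replicate block, GC offsets (lowess on GC) with and without the block, and each library left out. The members and lists were chosen with earlier results of these data known. From each list, genes with at least 5 CPM in 1 group and an adjusted p under 0.05 in knockout against control alone or the interaction were named, at most the 4 of largest change. Other list members called in this or other comparisons were added after their values were seen. A gene that this rule selects is not reported here. Promoter sequences came from RefSeq (GRCh38.p14), which held 14 windows for the 10 members.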

Additional observations from a re-analysis of the deposited data

How the results depend on the processing

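Of 189 single values of members per comparison (180 for the interaction), 183 in knockout against control alone, 158 in co-cultured against lone knockout, 173 in the co-cultured pair, 170 in the control pair and 163 in the interaction kept their direction and side of the threshold. In co-cultured against lone knockout, the members called were 2 as tested, 4 with no filter on low counts, 4 with limma voom, 1 with the compared groups only, 7 with GC offsets, 6 with GC offsets and the replicate block, and 0 to 4 when 1 library was left out (0 without replicate 1 of either knockout group, 4 without replicate 3 of the co-culture). All genes called there were 1907 as tested, 3340 with no filter, 3347 with DESeq2, 2989 with limma voom, 664 with the compared groups only, 4733 with GC offsets, 3999 with GC offsets and the replicate block, and 536 to 5680 with 1 library left out. In the interaction, 0 members were called as tested, 2 with no filter, 1 with DESeq2, 5 with GC offsets, 2 with GC offsets and the replicate block, and 0 to 4 with 1 library left out. All genes called in the interaction were 301 as tested, 1342 with no filter, 878 with DESeq2, 1288 with GC offsets, 717 with GC offsets and the replicate block, and 119 to 3623 with 1 library left out. In co-cultured against lone control, 2 genes were called with no filter.

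Signs turned as follows. With GC offsets, with and without the replicate block, TGFB1 in knockout against control alone was 0.14 in both, ID3 in co-cultured against lone knockout was -0.11 and -0.12, ID3 in the interaction was -0.10 in both, and in the control pair SMAD7 was 0.07 and 0.05 and ID1 was 0.02 in both. In the control pair ID2 was -0.01 with DESeq2 size factors, DESeq2 and limma voom, and SMAD7 was 0.01 with library size alone. With 1 library left out, the control pair ranged from -0.47 to 0.36 for SKIL, -0.21 to 0.12 for SMAD7, -0.19 to 0.31 for TGFB2, -0.26 to 0.06 for ID3, -0.11 to 0.17 for ID2, -0.23 to 0.06 for ID1 and -0.31 to 0.03 for SMAD6, and SKIL in the co-cultured pair from -0.46 to 0.87. The cause of these shifts was not tested. Scaling by library size alone shifted the all-gene median (log2) to 0.244, from 0.087, in knockout against control alone and to -0.107, from 0.013, in the interaction, and the lone knockout means of BMP4 and SMAD6 to 8.75 and 130 CPM.

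The replicate numbers did not pair the libraries in every group. Deviations of same-numbered libraries correlated at -0.603 to 0.491, 7 of 18 pairs exceeded 0.1, and 1 of 12 libraries correlated best with its own number. Outside the co-cultured knockout, these correlations were 0.189 to 0.491 for replicate 1, -0.0735 to -0.0242 for replicate 2 and 0.308 to 0.412 for replicate 3. Co-cultured knockout replicate 3 correlated at 0.357 to 0.639 with replicate 1 of the other groups and at -0.603 to -0.523 with their replicate 3. The replicate block used the numbers as labelled, and the origin of this pattern was not tested. The replicate block left the number of members called at 9, 2, 5, 0 and 0 and gave 1080 genes in co-cultured against lone knockout and 179 in the interaction. At these depths INHBA was too sparse to compare.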
